A study of Homo sapiens with 6 samples.

Results

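The genes described here are 49 genes of DNA replication and nucleotide synthesis, taken from a list of names and grouped into 10 roles: origin licensing, the MCM helicase, CDC45 and GINS, DNA polymerase alpha with primase, DNA polymerases delta and epsilon, the sliding clamp and its loader, single-strand DNA binding, Okazaki fragment joining, nucleotide synthesis and regulators of S phase entry. All 49 were found among 58336 gene identifiers, and all 49 were among the 15830 genes with enough counts to be tested. They were measured by RNA sequencing in 12Z, an established cell line of human endometriotic epithelial cells. In the siBRG1 group the cells received an siRNA against SMARCA4, the gene of BRG1, the motor of many SWI/SNF remodelling complexes, and in the control group they received a non-targeting siRNA. Each group held 3 libraries. In both groups, per the labels, cells were grown in 10% serum and then transfected with siRNA at 50 nM, fresh medium came after 24 h, the serum was lowered to 0.5% at 48 h, and RNA was taken at 72 h, so that the last day before harvest was spent in low serum. The labels do not say that the libraries of a group came from separate cultures, so a p-value below weighs a difference against library-to-library spread that could be technical.

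The 2 groups of libraries also differed in origin, in depth and in the makeup of their reads. The labels mark the 3 control libraries as a renewed analysis of an earlier deposit, a mark the siBRG1 libraries do not carry. The origin of the libraries, with any difference in how they were prepared, and the siRNA therefore cannot be told apart. This holds for every gene below and for every ratio of genes within a library. Counts assigned to genes came to 12391161 to 13369692 per siBRG1 library and 40228678 to 49720320 per control library. Reads that mapped to several places, which are in no gene's count, made up 18.5 to 21.5% of reads in siBRG1 and 9.57 to 10.0% in control. Reads outside annotated genes made up 3.97% of reads on average in siBRG1 and 13.3% in control. Histone genes, most of whose transcripts are made in S phase and lack a poly(A) tail, took 0.0161 to 0.0186% of gene counts in siBRG1 and 1.04 to 1.09% in control. For each of these 4 measures an exact two-sided permutation test gave p = 0.1, the smallest value 3 libraries against 3 allow, and their part in the results below was not tested. SMARCA4 itself was at 60.5, 78.9 and 50.6 counts per 1000000 (CPM) in the siBRG1 libraries and at 244, 266 and 262 CPM in the control libraries, 0.246 of the control level (edgeR quasi-likelihood test, adjusted p = 0.000267). Of 6 epithelial markers all were detected, with a summed level of 3476 to 3733 CPM in siBRG1 and 3935 to 4020 CPM in control, and 3 rose (CDH1 by 0.93 on the log2 scale) while 2 fell (KRT7 by 2.40). The 7 stromal fibroblast markers summed to 4747 to 5070 CPM in siBRG1 and 2625 to 2811 CPM in control, 6 of them higher and THY1 lower, and COL3A1 had the largest rise (log2 fold change 2.46). Endothelial markers stood at 15.1 to 21.3 CPM against 17.4 to 20.1 CPM in sum, with PECAM1 and TEK under 3 counts, and 5 immune markers at 9.76 to 10.5 CPM against 4.10 to 5.50 CPM, with CD3E at 0 and CD14 the larger part of the sum in both groups. Their part in the results below was not tested.

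Before a cell copies its DNA, the origin recognition complex, CDC6 and CDT1 load the ring of MCM2 to MCM7 onto origins in G1, and the ring becomes an active helicase when CDC45 and GINS join it. Primase and polymerase alpha start each strand, RFC loads the PCNA clamp, polymerases epsilon and delta extend the leading and lagging strands, RPA covers the exposed single strands, and FEN1 and LIG1 trim and seal Okazaki fragments. Ribonucleotide reductase, thymidylate synthase, thymidine kinase and dUTPase supply and clean the pool of deoxynucleotides. Many of these genes are transcribed under E2F factors. The retinoblastoma protein and its relatives restrain these factors, and cyclin E with CDK2 helps to release them.

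The promoters of the members were searched for short sequences, none of which was present in all of them. RefSeq promoters on GRCh38.p14, from 250 bases before to 50 after each transcription start, were found for 42 of the 49 genes (55 promoters, since some genes have several); MCM4, MCM5, GINS4, POLD3, RPA2, RPA3 and CCNE2 had no entry. An E2F-type sequence was searched as any of TTTGGCGC, TTTCGCGC, TTTCCCGC and TTTGCCGC, on both strands and with overlapping matches counted. It was present in 21 of the 55 member promoters (38.2%) and in 1164 of all 35116 promoters of the table (3.31%). CCAAT, on either strand, was in 30 of the 55 (54.5%) and in 34.6% of all promoters, and TTTGAA, the CHR sequence, was in 2 of the 55 (3.64%) and in 15.2%. The promoters of a member can overlap each other, so these shares are a description and were not tested. Below are 180 bases, 160 before to 20 after the start, 5′ to 3′ on the strand of the gene, for 6 members that carry the E2F-type letters, which are in capitals. E2F1, MCM2 and MCM6 were chosen because they rose, CDC6 and CDC25A because they fell, and POLE because it did not pass the test.
E2F1: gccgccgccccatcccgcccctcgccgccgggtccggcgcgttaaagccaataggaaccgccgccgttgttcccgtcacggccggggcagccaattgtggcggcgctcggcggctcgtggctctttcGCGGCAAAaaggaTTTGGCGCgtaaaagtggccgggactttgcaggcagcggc
MCM2: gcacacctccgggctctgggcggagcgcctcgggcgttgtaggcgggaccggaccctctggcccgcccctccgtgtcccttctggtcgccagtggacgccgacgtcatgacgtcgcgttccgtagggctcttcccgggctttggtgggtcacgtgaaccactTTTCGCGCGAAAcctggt
MCM6: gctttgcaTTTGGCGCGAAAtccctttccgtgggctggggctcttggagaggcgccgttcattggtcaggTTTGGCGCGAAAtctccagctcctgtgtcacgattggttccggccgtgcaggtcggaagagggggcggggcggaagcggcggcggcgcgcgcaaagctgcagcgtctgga
CDC6: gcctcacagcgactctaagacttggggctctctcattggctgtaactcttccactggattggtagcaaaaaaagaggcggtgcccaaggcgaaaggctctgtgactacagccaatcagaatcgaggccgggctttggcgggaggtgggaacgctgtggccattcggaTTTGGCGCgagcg
CDC25A: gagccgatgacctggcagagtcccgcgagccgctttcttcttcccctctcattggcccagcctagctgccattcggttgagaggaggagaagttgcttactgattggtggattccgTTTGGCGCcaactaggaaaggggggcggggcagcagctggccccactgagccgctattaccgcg
POLE: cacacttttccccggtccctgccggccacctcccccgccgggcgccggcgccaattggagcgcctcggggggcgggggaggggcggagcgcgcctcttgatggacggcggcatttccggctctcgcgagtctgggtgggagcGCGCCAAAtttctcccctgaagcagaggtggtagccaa
These stretches lie at chr20:33686366-33686545 (minus strand), chr3:127598251-127598430 (plus), chr2:135876424-135876603 (minus), chr17:40287719-40287898 (plus), chr3:48188398-48188577 (minus) and chr12:132687323-132687502 (minus). MCM6 had 4 matches in 2 overlapping pairs, whose first letters lie 152, 148, 90 and 86 bases before the start. The matches of E2F1 began 33 and 20 bases before the start, that of CDC25A 44 and that of POLE 18 bases before it. In MCM2 and CDC6 the letters lie just after the start, and in MCM2 the run reads as a match on both strands. These 6 were picked by their call, so their mix of directions follows from the choice. Among the 21 members with a match 14 were higher, 3 were lower and 4 did not pass, beside 31, 13 and 5 of all 49. The median log2 fold change was 0.27 for these 21 and 0.20 for the 21 members without a match. In the 250 bases before the start alone it was 0.25 both for the 16 with and the 26 without. These differences were not tested. A match is a description of letters and says nothing of whether a factor was bound.

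Most of the 49 genes rose after siBRG1, by modest amounts. At an adjusted p under 0.05 (edgeR quasi-likelihood test, Benjamini-Hochberg over all 15830 genes), 31 members were higher, 13 were lower and 5 did not pass. Over all genes tested 36.1% were higher and 36.5% lower, so 63.3% of the members were higher and 26.5% lower beside a background split evenly. The share called in either direction was 89.8% of the members and 72.6% of all genes tested. Members were also counted more deeply than the typical gene, with a median mean level of 91.2 CPM against 20.7 CPM over all genes tested. The CPM of the groups did not overlap for 44 members (89.8%), against 74.3% of all genes tested. Their changes were small: 14 members (28.6%) were called with at least a 1.5-fold change, against 38.6% of all genes, 12 of them higher and 2 lower. None of the 49 reached 2-fold, whether by edgeR, by DESeq2 or at an unadjusted p under 0.05, against 21.6% of all genes tested by edgeR. The median log2 fold change was 0.27 over the members and -0.0050 over all genes tested, and it was 0.21 over the members when the trends of each library in GC content and gene length were removed. The range ran from -0.63 for ORC2 to 0.95 for RPA3. In bulk RNA, a change in the share of cells in S phase and a change in RNA per cell cannot be told apart.

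**Figure D1:**
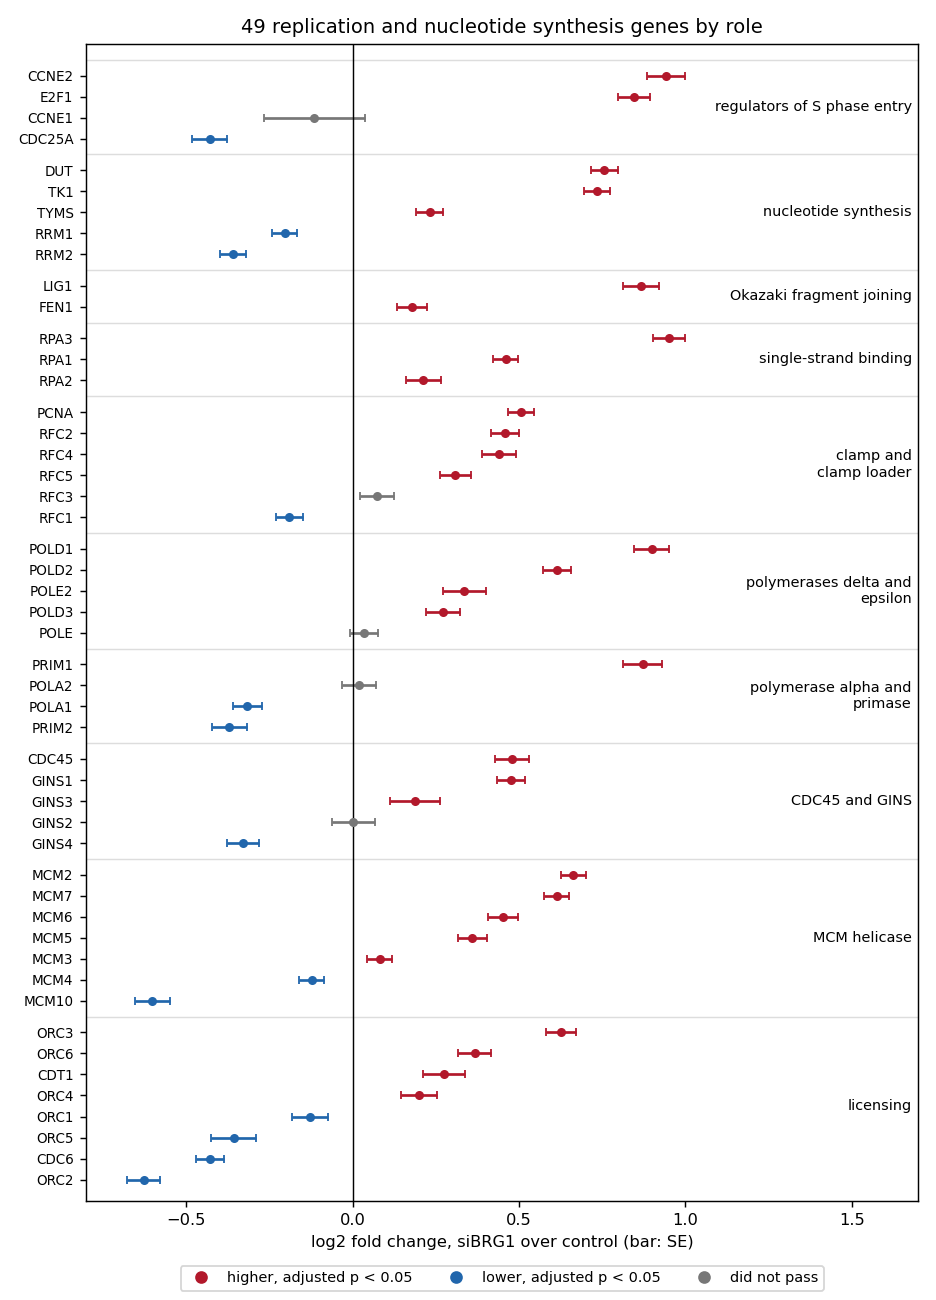
Log2 fold change of siBRG1 over control (x axis) for the 49 genes (y axis), in blocks by role; points are edgeR estimates from 3 libraries a group, bars their SE, and colours the call. Points to the right of the line outnumber those to the left in most blocks, with ORC2 and MCM10 farthest left at -0.63 and -0.60 and RPA3 and CCNE2 farthest right at 0.95 and 0.94.

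The 3 siBRG1 libraries showed this pattern one by one. The median over the members of the log2 ratio to the control mean was 0.22, 0.31 and 0.29 in siBRG1 libraries 1, 2 and 3. In control libraries 1, 2 and 3 it was 0.0093, -0.0122 and 0.0014. In the siBRG1 libraries 33, 35 and 34 of the 49 genes stood above the control mean, and in the control libraries 32, 20 and 25. By this count control library 1, at 32, was just below the lowest siBRG1 library, at 33, while the medians set the groups further apart. The spread between libraries was wider in siBRG1, the shallower group: the median coefficient of variation of a member was 4.26% there and 2.26% in control, against 8.59% and 4.67% over all genes tested. CCNE1 was the most variable member in both groups, at 19.4% and 7.21%.

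**Figure D2:**
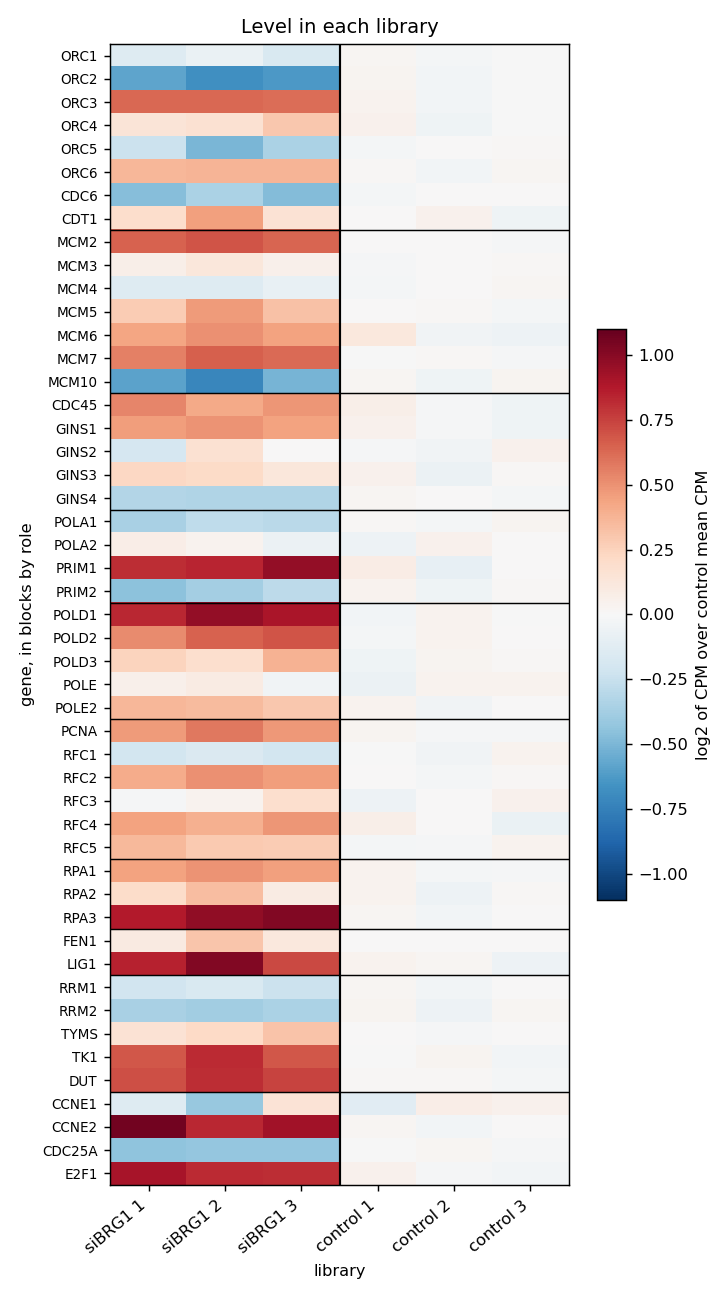
Level of each of the 49 genes (rows, in blocks by role) in each of the 6 libraries (columns), as the log2 of its CPM over the mean CPM of the 3 control libraries; red is higher and blue lower. The siBRG1 columns agree in colour for nearly every gene, and the exceptions, such as GINS2 and CCNE1, are genes that did not pass the test.

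Gene positions below are from GENCODE 29 on GRCh38. Origin licensing genes divided evenly, with 4 of 8 higher and 4 lower. Their median log2 fold change was 0.04, and its sign was not stable: it was -0.18 with GC and length trends removed, and also slightly below 0 with no count filter and with protein-coding genes alone. Within the origin recognition complex, the loader that marks origins, ORC3, ORC4 and ORC6 rose while ORC1, ORC2 and ORC5 fell. ORC3 (ENSG00000135336.14, chr6:87590067-87667453, plus strand) was at 113, 113 and 112 CPM in siBRG1 and 74.8, 71.5 and 72.8 CPM in control. All siBRG1 values lay above all control values, and the gene rose 1.54-fold (log2 fold change 0.63, SE 0.0450, adjusted p = 5.20e-13, edgeR). ORC2 (ENSG00000115942.8, chr2:200908973-200963680, minus strand), its partner in the core of the complex, moved the other way, with 60.5, 56.8 and 58.5 CPM in siBRG1 and 92.6, 88.8 and 90.4 CPM in control. No siBRG1 library came near a control library, and the log2 fold change of -0.63 (SE 0.0498, adjusted p = 4.32e-12, edgeR) was the largest fall among the 49. With GC and length trends removed ORC2 was at -0.59, beside -0.60 for the regulator CDC25A. The other subunits changed less, from -0.36 for ORC5 to 0.37 for ORC6. ORC4 was at 0.20, and at 0.34 with GC and length trends removed. ORC1, the ATPase subunit, was called only narrowly (log2 fold change -0.13, adjusted p = 0.0372, edgeR). The call of ORC1 was lost with the unstranded counts (adjusted p = 0.231), with library totals in place of TMM scaling (0.405), and without siBRG1 library 1 or 3 or control library 1 or 3 (0.0509 to 0.104), while with GC and length trends removed its log2 fold change was -0.28. The helicase loaders also split. CDC6, the ATPase that acts with ORC, fell in every siBRG1 library, to 136, 148 and 135 CPM from 185, 189 and 189 CPM (log2 fold change -0.43, adjusted p = 3.96e-10, edgeR). CDT1, which brings the MCM ring and is restrained by geminin, was at 55.2, 65.8 and 53.9 CPM against 48.2, 49.7 and 46.6 CPM, higher by 0.27 (adjusted p = 0.000329, edgeR). Without siBRG1 library 2 the rise was 0.18, and it turned to -0.09 (adjusted p = 0.166) when GC and length trends were removed; at 64.9% GC, CDT1 was among the most GC-rich of the members.

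Of the 6 subunits of the MCM ring, 5 were higher, and MCM10, which is no subunit of the ring but helps it fire, was lower. MCM2 (ENSG00000073111.13, chr3:127598223-127622436, plus strand) had 276, 284 and 274 CPM in the siBRG1 libraries and 176, 177 and 174 CPM in the control libraries. The groups were well apart relative to the spread within them, and MCM2 had the largest rise of the ring at 1.58-fold (log2 fold change 0.66, SE 0.0372, adjusted p = 1.91e-15, edgeR). MCM7 followed with 577, 623 and 607 CPM against 393, 398 and 391 CPM and a log2 fold change of 0.61, and MCM6 and MCM5 rose by 0.45 and 0.36. With GC and length trends removed the rises of MCM2, MCM7 and MCM5 were 0.43, 0.38 and 0.21, and MCM6, unmoved at 0.45, had the largest. MCM3 and MCM4 hardly moved. MCM4, the other subunit called, was lower by a small margin at 423, 423 and 442 CPM against 460, 468 and 474 CPM (log2 fold change -0.12, adjusted p = 0.00359, edgeR), a call lost with the unstranded counts (adjusted p = 0.104) and with library totals (0.249). MCM3 was called higher at 0.08 (adjusted p = 0.0471, edgeR). This call was lost with DESeq2 (adjusted p = 0.112), with no count filter (0.504), with protein-coding genes alone (0.323) and without siBRG1 library 2 or any of the 3 control libraries (0.133 to 0.198), and with GC and length trends removed the direction turned to -0.09 (adjusted p = 0.0213). MCM10 (ENSG00000065328.16, chr10:13161554-13211104, plus strand) stood at 62.1, 56.6 and 65.5 CPM in siBRG1 and 94.4, 90.2 and 95.0 CPM in control. Its fall was clear in all 3 libraries (log2 fold change -0.60, SE 0.0531, adjusted p = 4.16e-11, edgeR).

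CDC45 and the GINS tetramer, which turn the loaded ring into a helicase, were mixed: 3 of 5 rose, GINS4 fell and GINS2 did not pass. CDC45 (ENSG00000093009.9, chr22:19479459-19520612, plus strand) was at 87.4, 80.2 and 84.1 CPM in siBRG1 against 62.7, 59.4 and 58.3 CPM in control. With no overlap between the groups it rose 1.39-fold (log2 fold change 0.48, SE 0.0512, adjusted p = 2.04e-09, edgeR), and by 0.32 on the log2 scale with GC and length trends removed. GINS1 rose by nearly the same amount, 0.48 on the log2 scale, with 157, 161 and 155 CPM against 118, 113 and 110 CPM. GINS4 (ENSG00000147536.11, chr8:41529206-41545046, plus strand) was lower in every siBRG1 library, at 68.2, 67.9 and 68.1 CPM against 86.8, 85.5 and 84.1 CPM (log2 fold change -0.33, SE 0.0478, adjusted p = 6.00e-07, edgeR). With the unstranded counts the log2 fold change of GINS4 was -0.19. GINS2 ranged from 48.7 to 62.2 CPM in siBRG1, around control values of 54.8, 53.8 and 57.3 CPM, and missed the threshold (log2 fold change 0.00, 95% interval -0.12 to 0.13, adjusted p = 0.980, edgeR). GINS3 had the lowest level of the 4 subunits and was called higher at 0.19 (adjusted p = 0.0281, edgeR), but not by DESeq2 (adjusted p = 0.0776) and not without siBRG1 library 1 or 2 or control library 2 or 3 (0.0549 to 0.145).

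Polymerase alpha and primase form a single complex that lays down primers, and of its 4 genes PRIM1 rose, PRIM2 and POLA1 fell and POLA2 did not pass. PRIM1 (ENSG00000198056.13, chr12:56731596-56752373, minus strand), the catalytic subunit of primase, had 69.3, 70.3 and 76.8 CPM in siBRG1 and 41.6, 37.0 and 39.5 CPM in control. Every siBRG1 library was far above the control libraries, and PRIM1 rose 1.83-fold (log2 fold change 0.87, SE 0.0583, adjusted p = 1.01e-13, edgeR). PRIM1 shares 16.2% of its exon bases with other genes on the same strand, including NACA, so part of its reads may have been left uncounted as ambiguous. PRIM2 (ENSG00000146143.17, chr6:57314805-57646849, plus strand), the large primase subunit, fell, to 56.4, 59.8 and 63.5 CPM from 79.4, 74.6 and 78.0 CPM (log2 fold change -0.37, SE 0.0533, adjusted p = 5.14e-07, edgeR). POLA1, the polymerase subunit, fell by a similar amount, 0.32 on the log2 scale (adjusted p = 2.17e-07, edgeR). POLA2, the regulatory subunit, overlapped between the groups at 74.9, 72.9 and 67.9 CPM and 68.5, 73.5 and 71.1 CPM and missed the threshold (log2 fold change 0.02, adjusted p = 0.754, edgeR). With GC and length trends removed POLA2 was called lower at -0.16 (adjusted p = 0.00516). It shares 35.1% of its exon bases with another gene on the same strand.

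All 3 polymerase delta genes among the members rose, and of the polymerase epsilon members POLE2 rose and POLE did not pass. Further subunits are in the list of other replication factors. There POLD4, low at a control mean of 2.91 CPM, and POLE4 rose by 0.69 and 0.50, and POLE3 did not pass (-0.09). POLD1 (ENSG00000062822.13, chr19:50384204-50418016, plus strand), the catalytic subunit of the lagging-strand polymerase, was at 85.6, 93.8 and 89.6 CPM in siBRG1 and 47.0, 49.3 and 48.0 CPM in control. This 1.86-fold rise (log2 fold change 0.90, SE 0.0513, adjusted p = 2.72e-15, edgeR) was the third largest among the 49. Once GC and length trends were removed it was 0.55 on the log2 scale (adjusted p = 1.06e-10). POLD1 has the highest GC content of the members, at 65.0%. POLD2, an accessory subunit, rose by 0.61 (0.35 with these trends removed), and POLD3, which binds the clamp, by 0.27. POLE (ENSG00000177084.16, chr12:132623753-132687365, minus strand), the catalytic subunit on the leading strand, showed 165, 169 and 155 CPM in siBRG1 and 152, 163 and 163 CPM in control. Its groups overlapped (log2 fold change 0.03, 95% interval -0.05 to 0.12, adjusted p = 0.483, edgeR). POLE2, its second subunit, was higher in all siBRG1 libraries, at 37.0, 36.5 and 35.2 CPM against 29.4, 28.0 and 28.7 CPM (log2 fold change 0.34, adjusted p = 3.84e-05, edgeR).

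The clamp and 3 of the 4 small subunits of its loader rose, RFC3 did not pass, and the large loader subunit fell. PCNA (ENSG00000132646.10, chr20:5114953-5126626, minus strand), the ring that holds polymerases on DNA, had 473, 510 and 475 CPM in siBRG1 and 350, 339 and 338 CPM in control. All 3 siBRG1 libraries were well above the controls, and the rise was 1.42-fold (log2 fold change 0.51, SE 0.0381, adjusted p = 1.39e-12, edgeR). With GC and length trends removed the rise of PCNA was 0.66 on the log2 scale. RFC2, RFC4 and RFC5 rose by 0.46, 0.44 and 0.31 on the log2 scale, and RFC2 by 0.29 with GC and length trends removed. RFC1 (ENSG00000035928.15, chr4:39287456-39366375, minus strand), the large subunit that marks the loader used at replication forks, fell slightly, to 165, 170 and 165 CPM from 189, 185 and 195 CPM (log2 fold change -0.19, SE 0.0397, adjusted p = 0.000113, edgeR; -0.11 with library totals). RFC3 did not pass, at 92.2, 95.6 and 106 CPM against 89.3, 93.6 and 96.4 CPM (log2 fold change 0.07, adjusted p = 0.199, edgeR), and was called higher with the unstranded counts (0.13, adjusted p = 0.0236). Over RFC5, antisense reads made up 9.52 to 10.6% of stranded reads in siBRG1 and 24.4 to 25.3% in control, and 10.6% of its exon bases lie opposite WSB2 and another gene. The rise of RFC5 was 0.32 on the unstranded counts and 0.31 on the sense counts.

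RPA1, RPA2 and RPA3, the trimer that coats single-stranded DNA, all rose. RPA3 (ENSG00000106399.11, chr7:7636518-7718607, minus strand), the smallest subunit, stood at 113, 121 and 125 CPM in siBRG1 and 62.8, 60.4 and 61.9 CPM in control. The groups were nearly 2-fold apart with little spread, and this was the largest rise of the 49 genes (1.93-fold, log2 fold change 0.95, SE 0.0479, adjusted p = 1.66e-16, edgeR). RPA1, the main DNA-binding subunit, rose by 0.46 from a control mean of 299 CPM, and RPA2, the phosphorylated subunit, by 0.21 (adjusted p = 0.000690, edgeR), with the lowest siBRG1 library at 90.0 CPM and the highest control library at 86.6 CPM. Both genes of Okazaki fragment joining were higher. LIG1 (ENSG00000105486.13, chr19:48115445-48170603, minus strand), the ligase that seals the nicks, had 140, 158 and 129 CPM in siBRG1 against 79.9, 79.1 and 75.2 CPM in control. Its siBRG1 libraries varied by more than those of most members (SD 14.7 CPM, n = 3) but none came near the controls, and LIG1 rose 1.82-fold (log2 fold change 0.87, SE 0.0539, adjusted p = 1.88e-14, edgeR). FEN1, the flap nuclease, was higher by 0.18 (adjusted p = 0.000823, edgeR), with 191, 220 and 193 CPM against 179, 178 and 178 CPM. Without siBRG1 library 2 the rise of FEN1 was 0.11, and with GC and length trends removed its call was lost (-0.01, adjusted p = 0.907).

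Of the 5 nucleotide synthesis genes, DUT, TK1 and TYMS rose and RRM1 and RRM2 fell. DUT (ENSG00000128951.13, chr15:48331011-48343373, plus strand), the dUTPase that keeps uracil out of DNA and supplies dUMP, was at 208, 223 and 213 CPM in siBRG1 and 128, 128 and 125 CPM in control. The control libraries were close together and far below all siBRG1 libraries, and the rise was 1.69-fold (log2 fold change 0.76, SE 0.0403, adjusted p = 5.76e-16, edgeR). TK1, the cytosolic thymidine kinase of the salvage route, rose by 0.73, from 236, 242 and 232 CPM to 381, 419 and 381 CPM. With GC and length trends removed the rise of TK1 was 0.50. TYMS, which makes dTMP from dUMP, rose by 0.23 (adjusted p = 1.13e-05, edgeR), and by 0.13 with GC and length trends removed. Ribonucleotide reductase, which makes deoxynucleotides from ribonucleotides, is represented by 2 members, and both fell. RRM2 (ENSG00000171848.14, chr2:10120698-10131419, plus strand), the small subunit that is degraded outside S phase, fell to 175, 172 and 176 CPM from 229, 215 and 227 CPM (log2 fold change -0.36, SE 0.0395, adjusted p = 3.53e-09, edgeR). RRM1, the large catalytic subunit, fell by 0.20 (adjusted p = 1.44e-05, edgeR), and its 3 siBRG1 libraries, at 339, 348 and 333 CPM, were all below the control libraries, at 398, 385 and 393 CPM. The log2 fold change of RRM1 was -0.11 with the unstranded counts (adjusted p = 0.0117) and -0.13 with library totals. RRM2B, the other small subunit, which is in the list of other nucleotide genes, rose by 0.36 (adjusted p = 3.85e-06, edgeR). Reads of DUT, RRM2 and TYMS can be shared with the 8, 3 and 2 pseudogenes named for them, and 46.6% of TYMS exon bases lie opposite ENOSF1 and TYMSOS. RRM2 also shares 20.2% of its exon bases with another gene on the same strand, so part of its reads may have been left uncounted as ambiguous.

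Among the regulators, CCNE2 and E2F1 rose, CDC25A fell and CCNE1 did not pass. CCNE2 (ENSG00000175305.17, chr8:94879770-94896678, minus strand), a cyclin E that activates CDK2, had 89.4, 76.1 and 81.0 CPM in siBRG1 and 43.5, 41.8 and 43.0 CPM in control. It rose 1.92-fold with no overlap (log2 fold change 0.94, SE 0.0564, adjusted p = 8.11e-15, edgeR). Antisense reads over CCNE2 were 6.55 to 8.83% of stranded reads in siBRG1 and 18.7 to 20.5% in control, and the rise was 1.00 on the log2 scale with the unstranded counts. CCNE1, its relative, was low and variable at 5.39, 4.47 and 6.59 CPM against 5.46, 6.25 and 6.14 CPM and missed the threshold (log2 fold change -0.11, 95% interval -0.41 to 0.18, adjusted p = 0.505, edgeR). CCNE1 had 215 counts over the siBRG1 group, the fewest of the 49 genes. E2F1, the transcription factor of S phase entry, rose to 118, 111 and 110 CPM from 64.7, 62.3 and 61.4 CPM (log2 fold change 0.84, adjusted p = 1.93e-15, edgeR; 0.55 with GC and length trends removed). CDC25A (ENSG00000164045.11, chr3:48157146-48188402, minus strand), the phosphatase that activates CDK2, fell to 48.1, 48.6 and 48.6 CPM from 65.0, 66.0 and 64.6 CPM, with little spread in either group (log2 fold change -0.43, SE 0.0526, adjusted p = 2.96e-08, edgeR). With GC and length trends removed the log2 fold change of CDC25A was -0.60.

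A ratio of 2 genes within a library does not depend on how libraries are scaled, so pairs were compared as the log2 of one count over the other. The 12 pairs were chosen after the values were seen, mostly a gene that rose with one that did not, so that the shifts follow from the choice, and the ratios are given as a description of its size, without a test. The log2 ratio of ORC3 to ORC2 was 0.90, 1.00 and 0.94 in the siBRG1 libraries and -0.31 in each control library: ORC2 had more counts in control and ORC3 more in siBRG1. PRIM1 to PRIM2 likewise went from -0.93, -1.01 and -0.98 in control to 0.30, 0.23 and 0.27 in siBRG1. MCM7 to MCM4 went from a mean of -0.25 in control to 0.49 in siBRG1, and RPA3 to RPA2 from -0.45 to 0.29. These are ratios of counts, which also scale with gene length. Per kilobase of exon, ORC3 was above ORC2 in control too (19.8 against 15.5 CPM), as MCM7 was above MCM4 (89.8 against 67.0 CPM). RPA2 was above RPA3 in both groups, at 41.8 against 19.1 CPM per kilobase in control and 48.5 against 36.9 in siBRG1. Per kilobase of the longest transcript, RPA3 was at 59.1 CPM and RPA2 at 55.9 CPM in siBRG1, within their spread. The largest shifts of the other pairs were PRIM1 to POLA1 (by 1.19) and CCNE2 to CCNE1 (by 1.07), and the smallest was RRM1 to RRM2 (by 0.15), whose subunits fell together.

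**Figure D3:**
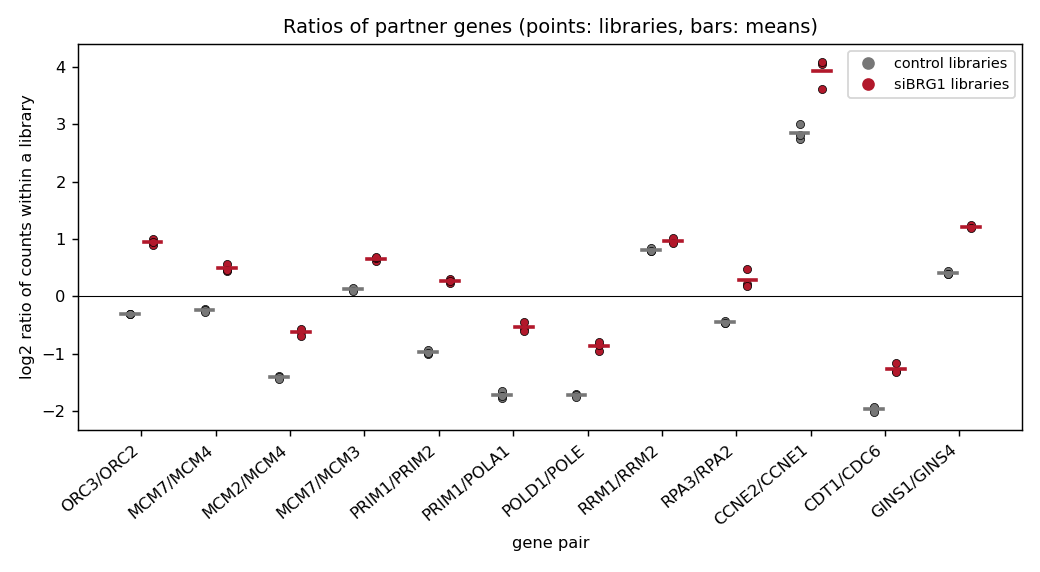
Log2 ratio of the counts of 2 partner genes within a library (y axis) for 12 pairs (x axis); points are libraries, short bars the means of 3, grey control and red siBRG1. The ORC3 to ORC2 ratio lies at -0.31 in control and 0.94 in siBRG1, and RRM1 to RRM2 shows the smallest gap, 0.81 against 0.97.

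Per kilobase of exon, the subunits of a complex were not present at equal RNA levels. In control, the level per kilobase of the MCM ring ran from 22.6 CPM for MCM5 to 99.0 CPM for MCM3, in the order MCM3, MCM7, MCM4, MCM6, MCM2, MCM5, where MCM6 (36.3 ± 2.46 CPM, SD, n = 3) and MCM2 (35.8 ± 0.34 CPM, SD, n = 3) did not differ beyond their spread. In siBRG1, MCM7 was first at 137 CPM per kilobase and MCM2 had passed MCM6. In the origin recognition complex ORC3 led in both groups, at 19.8 CPM per kilobase in control and 30.5 in siBRG1, and ORC4 was last at 6.30 and 7.24. PRIM1 was the third of the 4 polymerase alpha and primase genes in control (16.2 CPM per kilobase, within the spread of PRIM2 at 16.6) and the first in siBRG1 (29.6). Within GINS, GINS1 was highest and GINS3 lowest in both groups, at 27.9 and 4.19 CPM per kilobase in control. RRM1 exceeded RRM2 in both groups, 93.8 against 42.0 CPM per kilobase in control and 81.4 against 32.7 in siBRG1. These orders depend on the length used: with the longest transcript in place of all annotated exons, MCM7 led the ring in control too, at 128 CPM per kilobase against 113 for MCM3, and ORC6 stood above ORC3 in control, at 31.5 against 29.1.

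**Figure D4:**
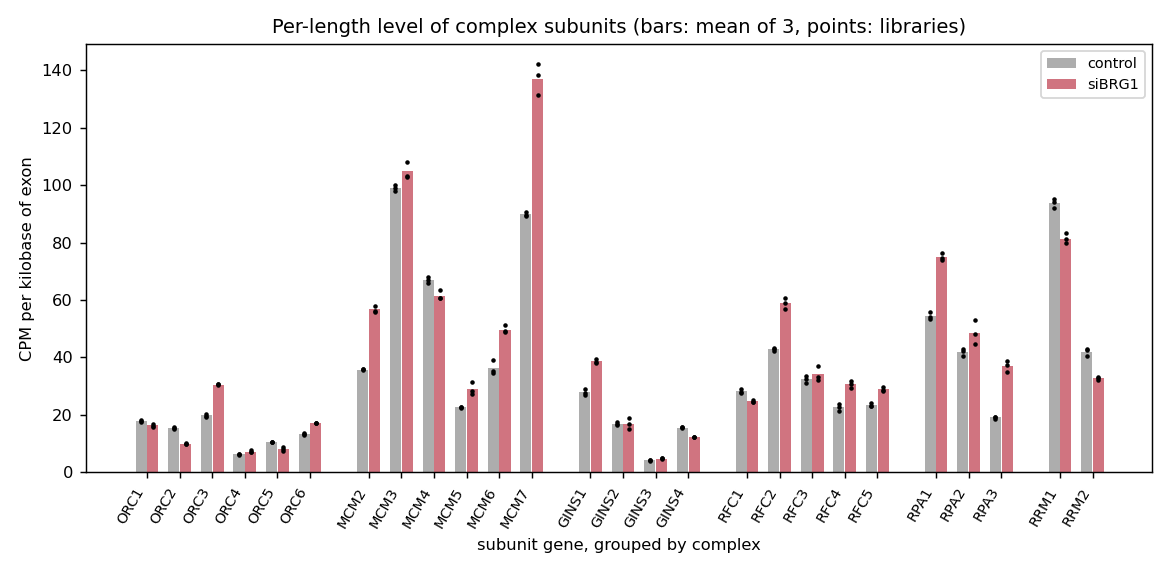
Level per kilobase of annotated exon, in CPM (y axis from 0), of the subunits of 6 complexes (x axis); bars are means of 3 libraries, points single libraries, grey control and red siBRG1. MCM7 rises above MCM3 in siBRG1, and ORC3 is the highest ORC subunit in both groups.

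Base composition and length moved with the changes. The members that rose had a median GC content of 48.1% in their longest transcript and a median exon length of 3674 bases, and those that fell 43.5% and 5454 bases. Across the 49 genes, which are not independent replicates and share the same 6 libraries, the log2 fold change had a Pearson correlation of 0.303 (Spearman 0.241) with GC content and of -0.317 (Spearman -0.341) with the log2 of exon length. Over 15811 genes tested the correlations were 0.128 (0.190) and 0.213 (-0.0387). With trends of each library in GC content and length removed, 32 of the 49 genes had a lower log2 fold change, by most for CDT1 (-0.36), POLD1 (-0.35) and E2F1 (-0.30), which have GC contents of 62.5 to 65.0%. POLD1 and E2F1 stayed higher at 0.55 and 0.55, and RPA3, CCNE2, PRIM1 and DUT, with GC contents of 36.9 to 45.9%, moved by less than 0.05. ORC2, MCM10, CDC6, PRIM2 and RRM2 also moved by less than 0.05 and remained lower. How much of the member pattern comes with base composition beyond this was not tested.

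**Figure D5:**
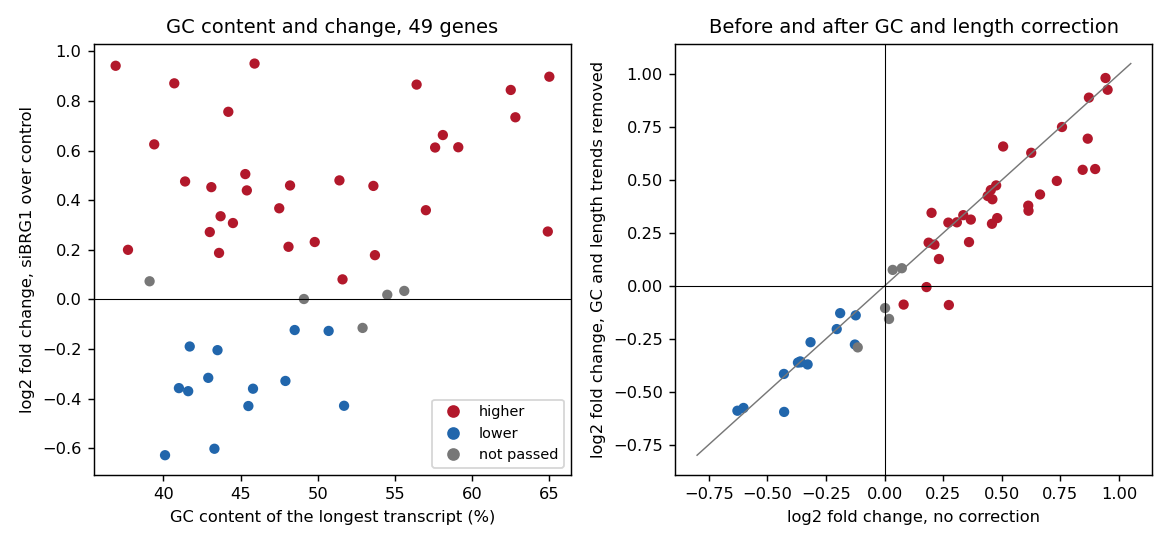
Left, log2 fold change of the 49 genes (y axis) against the GC content of the longest transcript in percent (x axis); right, log2 fold change after (y axis) against before (x axis) removal of GC and length trends, with a line of equality. GC-rich genes that rose lie below the line, and CDT1, MCM3 and FEN1 end at or below 0.

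Other genes of the same processes, in 4 lists, were read against the 36.1% higher and 36.5% lower of all genes tested. Of 36 other replication fork and origin factors, 14 were higher, 15 lower and 7 did not pass, with a median log2 fold change of -0.05. ASF1B, a histone chaperone of the fork, had the largest rise of them, with 149, 167 and 163 CPM in siBRG1 and 85.3, 84.1 and 77.8 CPM in control (log2 fold change 0.95). CLSPN, which encodes claspin, a fork protein of the replication checkpoint, had the largest fall, to 90.0, 90.9 and 88.1 CPM from 181, 182 and 189 CPM (-1.04, adjusted p = 1.77e-18, edgeR). Of 33 other genes of nucleotide metabolism, 10 were higher and 16 lower, with a median of -0.08. TK2, the mitochondrial thymidine kinase, had the largest rise (0.94) and ADSL, an enzyme of purine synthesis, the largest fall (-1.40). ADSL was low, at a mean of 4.57 CPM in siBRG1 and 12.0 CPM in control, in a list with a median level of 100 CPM. Regulators of the E2F, RB and DREAM system numbered 10 higher and 11 lower of 30, with a median of -0.05. CDKN1A, the CDK inhibitor p21, rose from 31.1, 32.7 and 27.9 CPM to 82.9, 86.8 and 86.1 CPM (log2 fold change 1.48, adjusted p = 7.22e-19, edgeR), and RBL1, the pocket protein p107, fell by 0.66. Among the 30 genes of G2 and mitosis 11 were higher and 18 lower, with a median of -0.17. CDK1, the mitotic kinase, rose from 205, 196 and 199 CPM to 443, 496 and 456 CPM (1.22, adjusted p = 1.52e-20, edgeR). PRC1, a spindle midzone protein, had the largest fall, by 1.00. It too was low, at a mean of 2.70 CPM in siBRG1 and 5.41 CPM in control, in a list with a median level of 261 CPM. The difference between the members and these lists was not tested.

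Counting can blur some members. Pseudogenes are named for 9 of the 49 (POLD2, PCNA, RFC3, RFC5, RPA2, FEN1, RRM2, TYMS and DUT), and reads that fit a gene and its copy equally well are left out of the counts. Of these 9 members 7 were higher and 1 lower, with a median log2 fold change of 0.23, and of the 40 others 24 were higher and 12 lower, with a median of 0.27. Antisense reads over all members made up 0.99 ± 0.07% of stranded reads in siBRG1 and 1.21 ± 0.06% in control (SD, n = 3). The authors' deposited table lists all 49 genes, with 29 higher, 13 lower and 7 not past an adjusted p of 0.05. The calls that differ are MCM3 and GINS3, which the authors' deposited table gives as 0.06 and 0.16 on the log2 scale with adjusted p of 0.134 and 0.0527.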

How the data were processed

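RNA of 3 siBRG1 and 3 control libraries was analysed. For each library the authors deposited raw read counts per gene, laid out as STAR output. Tools in the submitters' processing notes are STAR, DESeq2, FastQC, Trim Galore and cutadapt (no versions), and the build is GRCh38.p12. The authors also deposited a table of their own comparison with log2 fold changes and adjusted p-values, used only where it is named. The sense-strand count was used. Entries that name no gene (29.2% of reads in siBRG1, 28.9% in control, of different makeup) were left out. Of 58336 identifiers, 58216 matched GENCODE 29 symbols. Groups were compared with edgeR 4.0.16 (R 4.3.3): TMM, filterByExpr, robust quasi-likelihood fits on the group, two-sided, Benjamini-Hochberg over 15830 genes. The fit was tested on simulated data. CPM are counts per 1000000 gene counts, scaled by TMM, and 3 counts stand for 0.230 CPM per siBRG1 and 0.0710 CPM per control library on average. Alternatives included DESeq2 1.42.0, other filters, removal of GC and length trends and leaving out each library. The members and lists were chosen with earlier results of these data known. Values per library are given for SMARCA4 and for the largest rise and fall of each role, and tests for members that did not pass; of each other list the largest rise and fall with a mean of at least 50 counts is named. Genes outside this were chosen after their values were seen. Replicate numbers do not pair the libraries. One marker gene is not reported here.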

Additional observations from a re-analysis of the deposited data

How the results depend on the processing

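Of the 31 members called higher 27, and of the 13 called lower 11, kept their direction and their call under all 16 alternatives; the others were CDT1, MCM3, GINS3 and FEN1, and ORC1 and MCM4. The alternatives called 28 to 33 members higher and 11 to 15 lower. Members past 1.5-fold numbered 9 with GC and length trends removed, with or without the replicate block. Members past 2-fold numbered 2 (RPA3 and CCNE2) with the unstranded counts and with library totals in place of TMM factors, a scaling chosen after seeing the data. The member median was 0.2276 with no count filter (the median of all genes shifted to -0.3024), 0.2067 and 0.2058 with GC and length trends removed without and with the block, and 0.3481 with library totals. The E2F-type share was 29.1% in the 250 bases before the start alone, beside 2.79% of all promoters. The licensing median turned negative with no filter (-0.0077), with protein-coding genes alone (-0.0047), and with GC and length trends removed, without (-0.1839) and with the block (-0.1847). In these last 2 fits, directions turned for CDT1 (-0.0906, -0.0924), MCM3 (-0.0885, -0.0886), FEN1 (-0.0058, -0.0071), GINS2 (-0.1049, -0.1079) and POLA2 (-0.1564, -0.1569). GINS2, near 0 throughout, also turned with DESeq2 size factors (-0.0152), DESeq2 (-0.0145), no filter (-0.0426), protein-coding genes alone (-0.0395) and the block (-0.0015), and with a library left out ran from -0.0854 to 0.0925. With no filter and with protein-coding genes alone POLA2 (-0.0256, -0.0225) and POLE (-0.0101, -0.0070) turned too. With a library left out, POLA2 ran from -0.0234 to 0.0591, POLE from -0.0135 to 0.0713 and CCNE1 from -0.2620 to 0.0125. The causes were not tested. The replicate block alone called 30 members higher and 12 lower. Deviations of libraries with the same number correlated at -0.0126, 0.0220 and 0.00898, so the numbers were not taken as pairs. Depth limits CCNE1 most, with 215 counts in siBRG1.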

Other observations

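The list of E2F, RB and DREAM regulators was evenly split, with 10 of 30 higher and 11 lower, and the genes given here were picked from it after their values were seen. CDKN2C, the CDK inhibitor p18, was at 86.6, 82.2 and 75.1 CPM in siBRG1 and 39.5, 39.6 and 37.9 CPM in control, a rise of 1.06 on the log2 scale (SE 0.0562, adjusted p = 5.12e-16, edgeR). CDKN1B, which encodes p27, rose by 0.47 (adjusted p = 4.74e-11, edgeR) with 142, 140 and 141 CPM against 104, 101 and 99.2 CPM. RBL2, the pocket protein p130 of quiescent cells, rose from 54.3, 53.7 and 53.5 CPM to 89.8, 98.9 and 83.7 CPM. RBL1, the pocket protein p107, moved the other way (log2 fold change -0.66, adjusted p = 1.15e-12, edgeR). SKP2, which marks p27 for degradation, fell from 216, 228 and 226 CPM to 158, 150 and 154 CPM (log2 fold change -0.53, adjusted p = 1.36e-12, edgeR). RB1 itself missed the threshold (log2 fold change -0.06, adjusted p = 0.224, edgeR). The rises in this list were not confined to CDK inhibitors and pocket proteins. CDC25C, a relative of CDC25A, rose by 0.99 (adjusted p = 5.64e-16, edgeR), and CDK2 rose by 0.41 (adjusted p = 5.30e-10, edgeR).

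MKI67, the proliferation marker Ki-67, fell from 893, 984 and 1063 CPM to 671, 656 and 624 CPM (log2 fold change -0.59, adjusted p = 1.53e-11, edgeR). In the same libraries 31 of the 49 replication and nucleotide genes (63.3%) were higher, against 36.1% of all genes tested. MKI67 belongs to the list of 30 genes of G2 and mitosis, of which 18 were lower and 11 higher, CDK1 by 1.22 on the log2 scale. MKI67 too was named after its value was seen.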
